A study of Arabidopsis thaliana with 8 samples.

Results

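The copper-linked miRNAs of *A. thaliana* are described here through 5 rows of a table of 161 miRNAs: ath-miR397a, ath-miR398a, ath-miR398b, ath-miR408 and ath-miR857. They were chosen by name, because their best known target mRNAs encode copper proteins. Earlier results of these data were known when they were chosen. Wild-type Columbia (Col-0) seedlings were grown for 7 days in shaken liquid medium with sucrose under continuous light, and whole seedlings were then exposed to 24-epibrassinolide (EBR, a highly active brassinosteroid) at 10 nM or to a mock solution with the solvent DMSO. The 4 groups were EBR for 30 min (EBR30), mock for 30 min (mock30), EBR for 180 min (EBR180) and mock for 180 min (mock180), each with 2 single-colour miRNA arrays. The submitters' design note speaks of 2 independent experiments at each time, without saying which array belongs to which experiment.

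In plants short of copper, the transcription factor SPL7 switches on genes of the miR397, miR398, miR408 and miR857 families, not necessarily every gene. These miRNAs lead to cleavage of mRNAs for copper proteins that the plant can spare, which leaves copper for plastocyanin in photosynthesis. miR397 acts on laccases such as LAC2, LAC4 and LAC17, copper oxidases of the cell wall that take part in lignin formation. miR398 acts on the copper/zinc superoxide dismutases CSD1 and CSD2, which remove superoxide, and on CCS, their copper chaperone. miR408 acts on plantacyanin, a small blue copper protein, and on further laccases, and miR857 acts on LAC7. None of these mRNAs was measured on the arrays. In the RefSeq gene table of the assembly TAIR10.1, MIR397a (AT4G05105), MIR857 (AT4G13554) and MIR397b (AT4G13555) lie on chromosome 4, where MIR857 and MIR397b are direct neighbours. MIR398a (AT2G03445) and MIR408 (AT2G47015) lie on chromosome 2, and MIR398b (AT5G14545) and MIR398c (AT5G14565) lie on chromosome 5 with 1 gene between them. The table held no miR398c row. The mature miR398b and miR398c are known to be identical and miR398a to differ from them in its last base, so the rows of this family may share signal.

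The authors deposited 1 linear value per miRNA and array, with 0.01 as the lowest value, treated here as not detected. For the 43 miRNAs above 0.01 on all 8 arrays, each value was a ratio to that miRNA's median of the 8 arrays, so it carries no difference in level between miRNAs. ath-miR397a, ath-miR398a and ath-miR398b belonged to these 43 and were tested with limma on the log2 scale, with p-values adjusted over the 43. ath-miR408 and ath-miR857 were 2 of the 4 miRNAs at 0.01 on some arrays. Their medians over the arrays were not 1, how they were scaled is not given in the sources used here, and they are described array by array, with a test only in an alternative that takes 0.01 as a measured value. The arrays held between 44 and 47 miRNAs above 0.01. The array medians over the 43 miRNAs were 0.970 and 0.988 in EBR30, 0.818 and 0.931 in mock30, 1.12 and 1.02 in EBR180, and 1.07 and 1.08 in mock180, so the mock30 arrays were the lowest as a whole. In whole seedlings, fewer cells that make a miRNA and less miRNA per cell cannot be told apart.

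**Figure D1:**
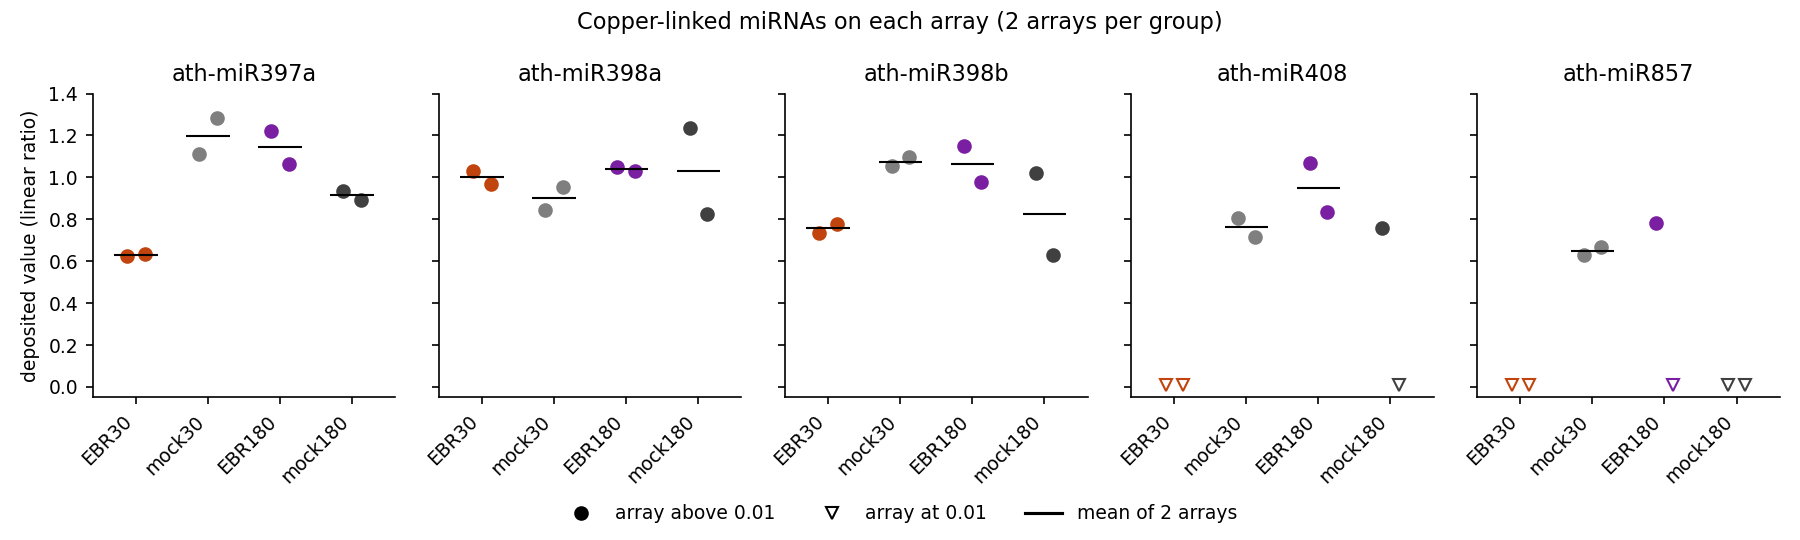
Deposited value (linear ratio, vertical axis) of each copper-linked miRNA on each array, by group. Filled circles are arrays above 0.01, open triangles are arrays at 0.01, and bars are means of 2 arrays. ath-miR397a and ath-miR398b were lowest in EBR30, the group in which ath-miR408 and ath-miR857 were at 0.01 on both arrays.

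The first comparison asked how these miRNAs stood after 30 min of EBR. ath-miR397a was at 0.624 and 0.635 on the EBR30 arrays, against 1.11 and 1.28 on the mock30 arrays. Its EBR30 arrays were also the lowest of all 8, and they lay close together. The fold in EBR30 was 0.527 of mock30, a log2 difference of -0.92 ± 0.12 (SE; adjusted p = 1.12e-10 from limma), the lowest value among the 43 tested miRNAs. ath-miR398b was at 0.737 and 0.777 in EBR30, against 1.05 and 1.10 in mock30. Here too the groups did not overlap, and the fold of 0.704 (log2 difference -0.51 ± 0.12, adjusted p = 0.000795 from limma) was the next lowest of the 43. ath-miR398a, the near-identical relative, did not move with ath-miR398b. Its values were 1.03 and 0.970 in EBR30, against 0.846 and 0.952 in mock30, a log2 difference of 0.15 with a 95% interval from -0.09 to 0.40 (adjusted p = 0.320 from limma).

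The other pair of copper-linked miRNAs was not detected in EBR30. ath-miR408 was at 0.01 on both EBR30 arrays, against 0.806 and 0.717 on the mock30 arrays. ath-miR857 was at 0.01 on both EBR30 arrays, against 0.632 and 0.666 on the mock30 arrays. No value of the table lay between 0.01 and 0.434, so a value of 0.01 marks a miRNA as not detected and gives no fold. Of the 47 miRNAs above 0.01 on any array, 2 (4.26%) were at 0.01 on both EBR30 arrays and above 0.01 on both mock30 arrays, and these were ath-miR408 and ath-miR857. The other miRNAs with values at 0.01 on some arrays had 1 such array each, miR843 in EBR30 and miR394a in mock30.

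Thus, at EBR30, 2 of the 5 copper-linked miRNAs were called lower and another 2 were not detected. The deposited ratios of most tested miRNAs were higher than in mock30, whose arrays were the lowest as a whole. Lower calls made up 6.98% of the 43 tested miRNAs (3 miRNAs, ath-miR397a and ath-miR398b among them) and higher calls 30.2% (13 miRNAs), with a median log2 difference of 0.18. Both EBR30 arrays lay below both mock30 arrays for 5 of the 43 (11.6%), namely ath-miR397a, ath-miR398b, miR172b*, miR172e and the phosphate-linked miR827. They lay above both mock30 arrays for 28 (65.1%), ath-miR398a among these. With 2 arrays against 2, the exact permutation test of a single miRNA cannot give a two-sided p under 0.333, and both of the lower members had that p. After subtraction of each array's log2 median over the 43 miRNAs (centring), 4 were called higher and 4 lower, and the median log2 difference was 0.02. The centred log2 difference was -1.09 for ath-miR397a (adjusted p = 7.31e-06 from limma) and -0.67 for ath-miR398b (adjusted p = 0.0620, no longer past the threshold, with 0.000433 to 0.143 across all alternatives). That of ath-miR398a turned to -0.01. On this centred scale ath-miR397a was at 0.643 on each EBR30 array, against 1.36 and 1.38 times the array median on the mock30 arrays, so the gap between its duplicates almost vanished. With the spread of a miRNA estimated from only these 4 arrays, neither member passed after adjustment (adjusted p = 0.117 for each in a t-test). The unadjusted p of that t-test was 0.0124 for ath-miR397a and 0.00883 for ath-miR398b. With the 4 miRNAs at 0.01 on some arrays included in the fit, ath-miR398b also lost its call (adjusted p = 0.143). In that fit its standard error was 0.23, nearer to its own spread, and that of ath-miR397a was 0.10. There 0.01 was taken as a measured value, so the fitted sizes of ath-miR408 and ath-miR857 have no meaning, and each had an adjusted p of 0.0719 at EBR30.

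The same comparison was made after 180 min. ath-miR397a was at 1.22 and 1.06 in EBR180, against 0.935 and 0.892 in mock180. Both EBR180 arrays were higher than both mock180 arrays, with a fold of 1.25, and the log2 difference of 0.32 ± 0.12 (95% interval 0.08 to 0.57) had an adjusted p of 0.0586 from limma, just short of the threshold. It passed after centring (log2 difference 0.33, adjusted p = 0.00548) and with quantile-normalised arrays (adjusted p = 0.0221), while the highest adjusted p of any alternative was 0.387. ath-miR398b was at 1.15 and 0.979 in EBR180, against 1.02 and 0.629 in mock180. The groups overlapped, since the higher mock180 array lay above the lower EBR180 array. The log2 difference of 0.40 ± 0.12 passed the threshold (adjusted p = 0.0126 from limma), but it rested on mock180 replicate 2: without that array it was 0.05 (adjusted p = 0.889), and the call was also lost without EBR180 replicate 1 (0.29, adjusted p = 0.467) or replicate 2 (0.52, adjusted p = 0.108), with centred arrays (adjusted p = 0.165) and with quantile-normalised ones (adjusted p = 0.158). ath-miR398a was at 1.05 and 1.03 in EBR180, against 1.24 and 0.824 in mock180. Its mock180 arrays enclosed the EBR180 ones, and the log2 difference of 0.04 had a 95% interval from -0.20 to 0.29.

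ath-miR408 was detected on both EBR180 arrays, at 1.07 and 0.835, and on 1 mock180 array, at 0.759, with the other at 0.01. Both EBR180 values were therefore above both mock180 values, the reverse of the order at 30 min. ath-miR857 was detected on 1 EBR180 array, at 0.784, and on none of the mock180 arrays. In all, ath-miR408 was above 0.01 on 5 arrays and ath-miR857 on 3, and every array with ath-miR857 also had ath-miR408. ath-miR397b, the row of the MIR857 neighbour, was at 0.01 on all 8 arrays. Over the 43 tested miRNAs, 4 (9.3%) were called higher at EBR180, ath-miR398b among them, and 3 (6.98%) lower. Both EBR180 arrays lay above both mock180 arrays for 10 of the 43 (23.3%), ath-miR397a among them, and below them for 14 (32.6%), with no copper-linked miRNA among these.

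Whether the EBR effect differed between the times was tested in the same model. For ath-miR397a the effect was 0.32 at 180 min, against -0.92 at 30 min, and the difference of 1.25 ± 0.18 (SE; adjusted p = 8.21e-10 from limma) was the highest of the 43. For ath-miR398b the effect was 0.40 at 180 min, against -0.51 at 30 min, and the difference of 0.91 ± 0.18 (adjusted p = 9.46e-06) ranked next. Past the threshold, 4 of the 43 miRNAs (9.3%) had a higher effect at 180 min and 7 (16.3%) a lower one. After centring these numbers were 8 and 7. Before centring the 4 were ath-miR397a, ath-miR398b, miR395a, of sulfate assimilation, and miR399b, of phosphate uptake. The further tested rows linked to these nutrients, miR395b (-0.29) and miR827 (0.05), were not called. Of the nitrogen-linked miR169 family, miR169d (-0.82) and miR169h (-0.67) were among the 7 with a lower effect. The call of ath-miR397a held in all 15 alternatives, with adjusted p-values up to 0.0264. That of ath-miR398b was lost with each miRNA's own spread (adjusted p = 0.160) and with the 4 miRNAs at 0.01 on some arrays included (adjusted p = 0.105). Without mock180 replicate 2 its difference was 0.56 and still past the threshold. With 0.01 taken as a measured value, the adjusted p of this difference was 0.0641 for ath-miR408 and for ath-miR857. ath-miR398a showed no such difference past the threshold (-0.11, 95% interval -0.46 to 0.23, adjusted p = 0.579).

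**Figure D2:**
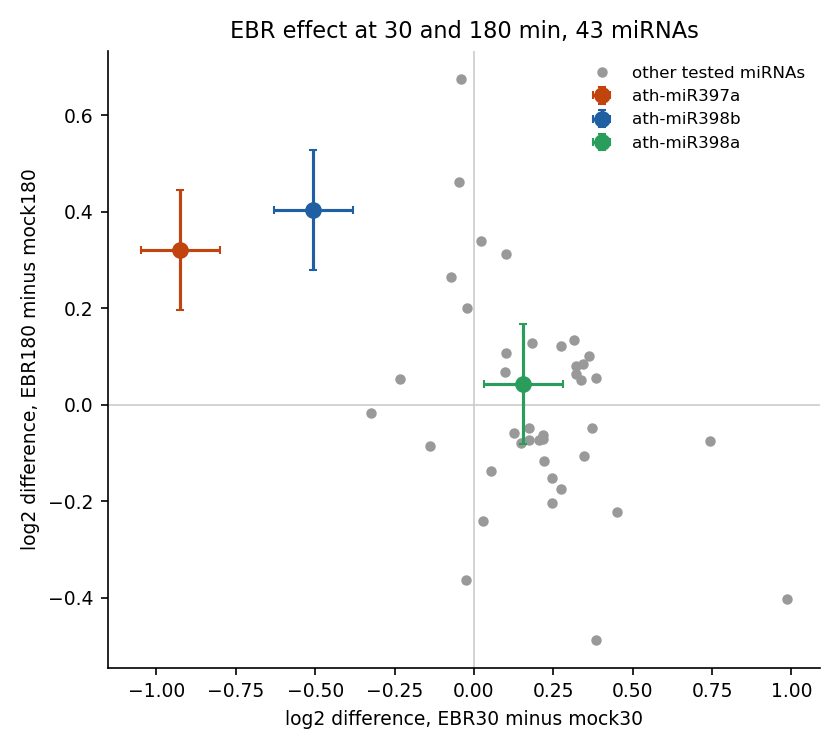
Log2 difference between EBR and mock at 30 min (horizontal axis) and at 180 min (vertical axis) for the 43 tested miRNAs, with bars of 1 SE for ath-miR397a, ath-miR398b and ath-miR398a. ath-miR397a (-0.92 and 0.32) and ath-miR398b (-0.51 and 0.40) stand at the left, lower at 30 min and above 0 at 180 min.

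The mock groups themselves differed with time, which bears on how these effects are read. In mock180, ath-miR397a was lower than in mock30, by a log2 difference of -0.39 (adjusted p = 0.00525 from limma), and ath-miR398b by -0.42 (adjusted p = 0.00226). Only 3 of the 43 miRNAs (6.98%) were called lower in mock180, these 2 and miR395a, while 25 (58.1%) were called higher and the median log2 difference was 0.29. After centring 7 were called higher and 8 lower, and the difference was -0.69 for ath-miR397a (adjusted p = 6.44e-05) and -0.73 for ath-miR398b (adjusted p = 0.0369). The fall of ath-miR398b rested on mock180 replicate 2, without which it was -0.07 (adjusted p = 0.692). ath-miR398a had a log2 difference of 0.17 (adjusted p = 0.207) that turned to -0.14 after centring. ath-miR857 was detected on neither mock180 array and on both mock30 arrays. With 0.01 taken as a measured value its adjusted p was 0.0418 from limma, which depends on that value. In that fit 27 of 47 miRNAs were called in this comparison, 3 of them lower. ath-miR408 was detected on 1 mock180 array and on both mock30 arrays. With EBR the order was the opposite. In EBR180, ath-miR397a exceeded EBR30 by a log2 difference of 0.86 (adjusted p = 2.26e-09 from limma), a fold of 1.81, and ath-miR398b by 0.49 (adjusted p = 0.000828), while 7 of the 43 (16.3%) were called higher and 1 (2.33%) lower, or 7 and 5 after centring. The call of ath-miR398b was lost after centring (0.36, adjusted p = 0.266, the highest of any alternative being 0.416) and without EBR180 replicate 1 (0.37, adjusted p = 0.416).

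Over all 4 groups, ath-miR397a was highest in mock30 (mean 1.20), followed by EBR180 (1.14), mock180 (0.913) and EBR30 (0.629). Only the top pair of groups overlapped. The order was the same for ath-miR398b, with means of 1.07, 1.06, 0.825 and 0.757, but neighbours overlapped everywhere, also mock180 with EBR30, whose values of 0.737 and 0.777 lay between the 2 mock180 arrays. In the moderated F-test over the 4 groups, in which 27 of the 43 miRNAs (62.8%) passed, the adjusted p was 8.39e-14 for ath-miR397a, 2.15e-05 for ath-miR398b and 0.366 for ath-miR398a. That of ath-miR398b was 0.0601 after centring.

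The members were also set against each other within each array, since any scaling of a whole array cancels in such a ratio. The ratio of ath-miR398b to ath-miR398a was 0.715 and 0.801 in EBR30, against 1.24 and 1.15 in mock30. At 180 min it was 1.10 and 0.950 in EBR180, against 0.826 and 0.763 in mock180. The groups did not overlap at either time and the direction turned round between them, although ath-miR398b alone overlapped at 180 min. Ratios of miRNAs outside the members were not computed, so no background share can be given. Among the 43 single miRNAs, both EBR30 arrays lay above both mock30 arrays in 65.1% and below them in 11.6%. At 180 min these shares were 23.3% and 32.6%. Both miR398 rows were higher on mock180 replicate 1 (1.02 for ath-miR398b and 1.24 for ath-miR398a) than on replicate 2 (0.629 and 0.824). The ratio of ath-miR397a to ath-miR398a was 0.605 and 0.655 in EBR30, against 1.31 and 1.35 in mock30, and overlapped at 180 min, with 1.17 and 1.03 in EBR180 and 0.757 and 1.08 in mock180. The ratio of ath-miR397a to ath-miR398b was 0.847 and 0.817 in EBR30, against 1.06 and 1.17 in mock30, so ath-miR397a was the more strongly lowered of the pair. Each non-overlapping comparison has the smallest two-sided exact permutation p that 2 arrays against 2 allow, 0.333.

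**Figure D3:**
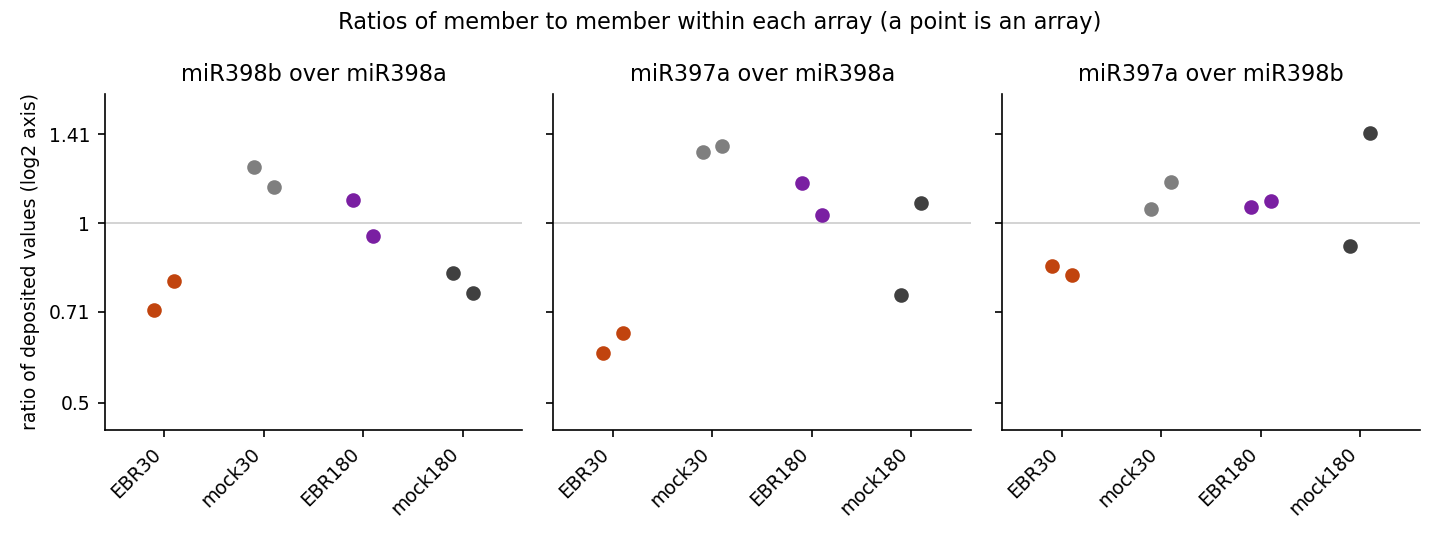
Ratio of the deposited values of a pair of copper-linked miRNAs on the same array (vertical axis, log2 scale), with a point for each array. For ath-miR398b over ath-miR398a the EBR30 arrays (0.715 and 0.801) lie below the mock30 arrays, and the EBR180 arrays (1.10 and 0.950) lie above the mock180 arrays.

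The duplicates of the miR398 rows agreed poorly in mock180. ath-miR398b differed by 0.70 on the log2 scale between the mock180 arrays, the widest gap among the 43 miRNAs, and ath-miR398a by 0.59, the third widest, against a median gap of 0.09. In both, replicate 2 was the lower array, and ath-miR408 was at 0.01 on that array and at 0.759 on replicate 1. ath-miR397a did not share this gap, with 0.07. The array was not low as a whole, since the signed gap had a median of -0.01 over the 43 miRNAs and the array medians were 1.07 and 1.08. The model gave all miRNAs a shared residual SD of 0.12 on the log2 scale. The members' own values were 0.10 for ath-miR397a, 0.22 for ath-miR398a and 0.26 for ath-miR398b, the second widest of the 43, so the standard errors of the miR398 rows are smaller in the model than their own duplicates would give. The limma p-values also pool the residuals of all 43 miRNAs as if independent. Duplicates shared array-wide gaps (median signed gap -0.14 in mock30 and 0.14 in EBR180), so these p-values can be too small.

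**Figure D4:**
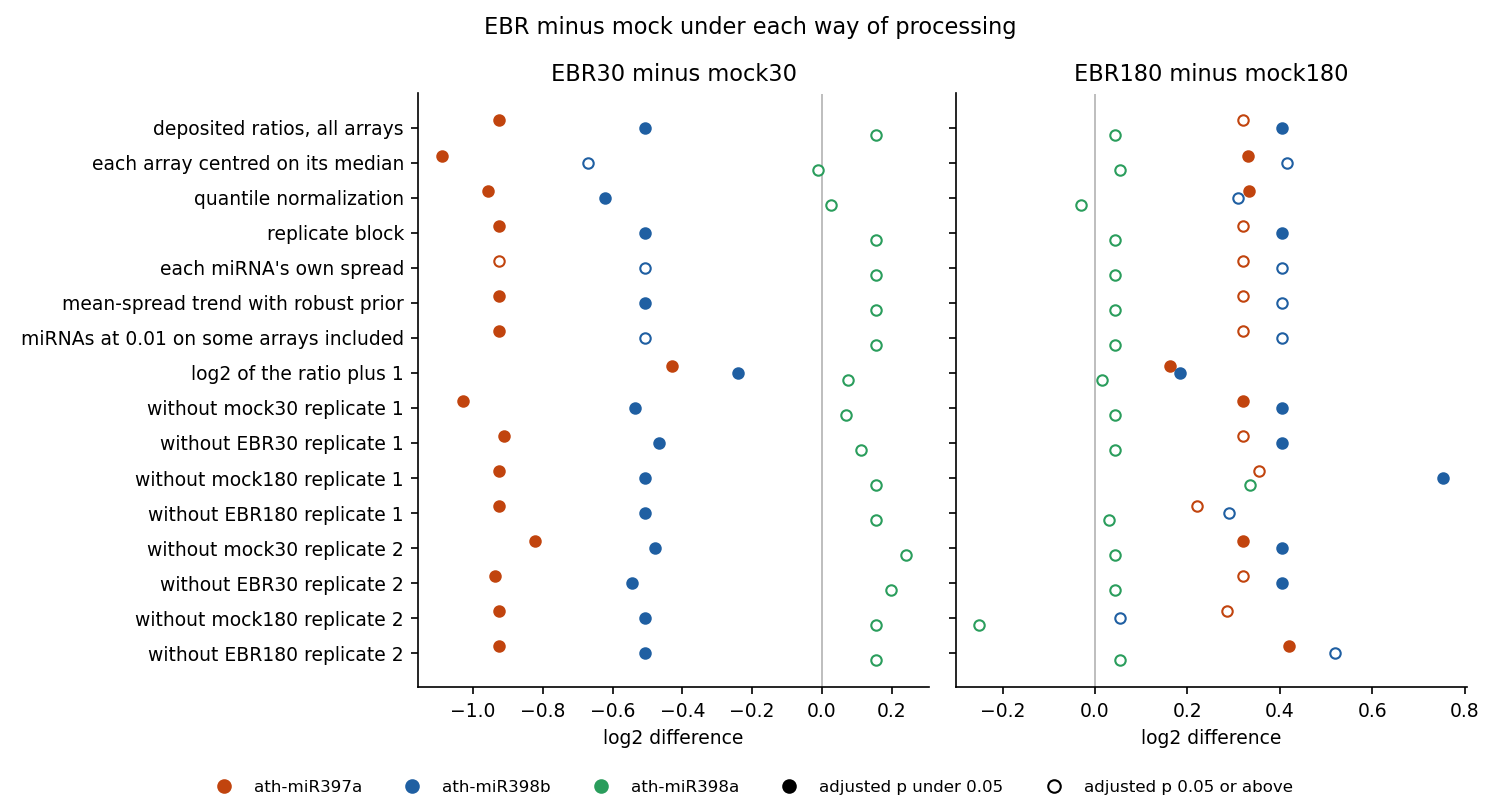
Log2 difference between EBR and mock at 30 min (left) and at 180 min (right) for ath-miR397a, ath-miR398b and ath-miR398a, with a row for each way of processing. Filled points have an adjusted p under 0.05. ath-miR397a and ath-miR398b stayed below 0 at 30 min in every row, while ath-miR398b at 180 min lay between 0.05 and 0.75. Rows that change only the spread or the miRNAs tested, or leave out an array of the other time, repeat the first row's value.

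As a description, each tested member was compared in its pattern over the 8 arrays with the other tested miRNAs. These correlations share the 4 groups and the array-wide scaling. ath-miR397a was most like miR172b* (Pearson r = 0.87, Spearman rho = 0.74), the passenger strand of a miRNA of flowering time, then ath-miR398b (r = 0.76, rho = 0.88) and miR172e (r = 0.54, rho = 0.55). Without the EBR30 arrays, the farthest from its median, r was 0.50, 0.76 and -0.01 for these 3. After centring, r was 0.95 for miR172b* with all arrays and also without the EBR30 arrays, and for ath-miR398b it was 0.80 with all arrays and 0.86 without them. For ath-miR398b the closest were ath-miR397a, miR399b (r = 0.71, rho = 0.74) and miR172b* (r = 0.55, rho = 0.57). Without EBR30 replicate 1 and mock180 replicate 2, the arrays farthest from its median, r was 0.95 for ath-miR397a, 0.27 for miR399b and 0.88 for miR172b*. After centring, ath-miR397a came after miR399b and miR159b, with r between 0.80 and 0.82 for these 3, but without the 2 farthest arrays r was 0.98 for ath-miR397a, 0.46 for miR399b and 0.40 for miR159b. ath-miR398a was most like the leaf-polarity miRNAs miR165a (r = 0.73, rho = 0.71) and miR166a (r = 0.72, rho = 0.90) and miR163 (r = 0.62, rho = 0.71), and its r with ath-miR398b was 0.38, which was 0.05 without EBR30 replicate 1 and mock180 replicate 2, and -0.21 without both mock180 arrays. After centring miR165a stayed the most like (r = 0.67, and 0.73 without both mock180 arrays). The next was ath-miR398b (r = 0.60, rho = 0.21), with an r of -0.03 without both mock180 arrays. For miR166a r was 0.53, and 0.04 without them.

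Other nutrient-linked miRNAs, the miR395, miR399, miR827 and miR169 families for sulfate, phosphate and nitrogen, filled 13 rows of the table, of which 7 were tested. At EBR30, 3 of the 7 were called higher and none lower, with a median log2 difference of 0.22, beside 30.2% called higher and a median of 0.18 over all 43, where the higher calls numbered 4 after centring. The 3 were miR169a, miR169d and miR169h, which act on subunits of the transcription factor NF-Y, with log2 differences of 0.34, 0.74 and 0.45. At EBR180, 2 of the 7 were called higher, miR395a by 0.68 and miR399b by 0.46, and none lower, with a median of -0.07, beside 9.3% called higher and a median of -0.02 over the 43. For the difference of the EBR effects, 2 of the 7 were called higher and 2 lower, with a median of -0.29. Over the 43 these shares were 9.3% and 16.3%, with a median of -0.24. No tested row of the sulfate and phosphate families was called lower at EBR30, where miR395a was at -0.04, miR395b at 0.22, miR399b at -0.05 and miR827 at -0.14, against -0.92 for ath-miR397a and -0.51 for ath-miR398b. Yet miR827, like these copper-linked rows, was 1 of the 5 miRNAs with both EBR30 arrays below both mock30 arrays. In mock180 against mock30, 3 of the 7 were called higher, miR169a by 0.53, miR169d by 0.97 and miR169h by 0.67 on the log2 scale, beside 58.1% of the 43, and 1 was called lower, miR395a by a log2 difference of -0.53, beside 6.98%.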

How the data were processed

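Total RNA of whole seedlings was labelled with Cyanine 3 and hybridised to customised 8-plex Agilent arrays with several probes for each miRNA. The authors deposited linear ratios, computed in GeneSpring against a baseline at the median over the arrays. Agilent Feature Extraction 9.1 is named in the submitters' processing notes. The background correction, the scaling between arrays and the handling of dim spots are not given in the sources used here. Slide and scan date were not used here. The ratios hold no signal over background, so 2 arrays in each group set the precision.

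The log2 ratios of the 43 miRNAs above 0.01 on all 8 arrays were fitted with limma 3.58.1 in R 4.3.3, with a mean for each group, empirical Bayes moderation and Benjamini-Hochberg adjustment over the 43, and called at an adjusted p under 0.05. The steps were tested on simulated data with the same spread for every miRNA. That test does not cover miRNAs whose own spread is wider than the shared one. If the arrays of a group came from the same culture, the p-values measure technical spread only. The members and lists were chosen with earlier results of these data known. The miRNAs named were the members, their family rows, the nutrient families, the 3 most like each tested member, and, chosen after their values were seen, miR394a, miR843 and other miRNAs called beside the members. The alternatives were the replicate number as a block, array centring and quantile normalization. Another used each miRNA's own spread (a t-test for 2 groups, the methods' one-way analysis for 4). Others were a robust prior with a trend of spread on mean, and addition of the 4 miRNAs that were at 0.01 on part of the arrays. The last were log2 of the ratio plus 1, detection above 0.02, and each array left out in turn. No sequence is shown.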

Additional observations from a re-analysis of the deposited data

Results flagged for a closer look

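In limma's test of the difference itself, ath-miR397a had a higher EBR effect at 180 than at 30 min, by 1.25 on the log2 scale, and ath-miR398b likewise, by 0.91, both past the adjusted threshold. For ath-miR408, detected on 5 arrays, both EBR180 arrays lay above both mock180 arrays and both EBR30 arrays lay below both mock30 arrays. This difference between the times was not tested in the model of the 43 miRNAs, which leaves out those at 0.01 on some arrays. With 0.01 taken as a measured value, it missed the threshold in limma (adjusted p = 0.0641). Groups of 2 arrays are too small for a check for outlying arrays.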

How the results depend on the processing

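With 2 arrays in each group, and no signal over background in the files, leaving out an array also lowers the precision, and the array left alone in its group is given the spread of the others. Values are log2 differences, with adjusted p-values for the F-test, and where a value equals the one reported only the spread or the number of miRNAs tested differs. After centring, ath-miR398b lost its call at EBR30 (-0.67), at EBR180 (0.42), between EBR180 and EBR30 (0.36) and in the F-test (adjusted p = 0.0601 from limma), ath-miR397a gained one at EBR180 (0.33), and ath-miR398a, called nowhere, changed sign at EBR30 (-0.010), in the difference of the EBR effects (0.064), in mock180 against mock30 (-0.14) and in EBR180 against EBR30 (-0.072). After quantile normalization ath-miR398b lost its call at EBR180 (0.31) and between EBR180 and EBR30 (0.31), ath-miR397a gained one at EBR180 (0.33), and ath-miR398a changed sign at EBR180 (-0.030), in mock180 against mock30 (-0.030) and in EBR180 against EBR30 (-0.085). With each miRNA's own spread, calls were lost for ath-miR397a at EBR30 (-0.92), in mock180 against mock30 (-0.39) and in EBR180 against EBR30 (0.86), and for ath-miR398b in all comparisons (-0.51 at EBR30, 0.40 at EBR180, 0.91 for the difference of the effects, -0.42 and 0.49 with time, adjusted p = 0.283 by one-way ANOVA on each miRNA). Adding the 4 miRNAs that were at 0.01 on part of the arrays lost the same calls of ath-miR398b (adjusted p = 0.187 in limma's F-test) and no call of ath-miR397a. The trend with a robust prior lost ath-miR398b at EBR180 (0.40) and between EBR180 and EBR30 (0.49), and log2 of the ratio plus 1 brought ath-miR397a past the threshold at EBR180 (0.16). With 1 array left out, the value at EBR180 ranged from 0.22 to 0.42 for ath-miR397a, from -0.25 to 0.34 for ath-miR398a and from 0.055 to 0.75 for ath-miR398b. The difference of the EBR effects of ath-miR398a ranged from -0.41 to 0.18. In mock180 against mock30 ath-miR398a ranged from -0.12 to 0.46, called only without mock180 replicate 2, and ath-miR398b from -0.77 to -0.074. In EBR180 against EBR30 ath-miR398b ranged from 0.37 to 0.60. The adjusted p of limma's F-test ranged from 0.0273 to 0.874 for ath-miR398a and from 7.22e-09 to 0.0553 for ath-miR398b. The numbers of arrays with ath-miR408 and ath-miR857 were the same for detection above 0.02. With the replicate number as a block, no difference could change, since each group holds 1 array of each number. Only the spread could, and all 18 results kept their side of the threshold (ath-miR397a at EBR30 -0.92). The gaps between replicates 1 and 2 correlated between groups with r from 0.11 to 0.36 across the 43 miRNAs, and the sources do not say what the numbers mark. The number of the 43 miRNAs called moved from 16 to between 0 and 19 at EBR30, from 7 to between 0 and 13 at EBR180, from 11 to between 4 and 15 for the difference of the effects, from 28 to between 0 and 32 in mock180 against mock30, from 8 to between 0 and 12 in EBR180 against EBR30 and from 27 to between 9 and 35 in the F-test. The zeros came from each miRNA's own spread, where 9, 4, 14 and 3 miRNAs passed unadjusted in the 4 comparisons of groups, in the order just given.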
